A study of Medicago truncatula with 24 samples.

Results

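miR396 is a conserved plant microRNA family whose mature strand guides cleavage of transcripts of the GROWTH-REGULATING FACTOR (GRF) transcription factors, which promote cell proliferation in leaves and root meristems. The precursor hairpin is cut into a short duplex with a mature strand and an opposite arm, often called the star strand. The mature strand is the one usually kept in the Argonaute complex, and the opposite arm is usually the less abundant of the duplex. In other plants, raised miR396 lowers GRF transcripts and reduces organ size. Here the family was described in small RNA sequenced from the legume Medicago truncatula. It was taken as the sequences of the deposited tables that match the conserved miR396 mature strand without gaps over 18 nt or more, allowing up to 3 mismatches, together with sequences that pair with such a strand as its opposite arm (2-nt 3′ overhang, at most 3 mismatches). This choice found 5 of the 427 sequences listed, of which 343 had counts, and it used no measured level. The 5 members were 2 mature strands and 3 opposite arms, all 21 nt long.

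The members are shown as the tables list them, written as DNA from 5′ to 3′, because the comparison turns on the last base of the mature strands. Capitals mark bases 2 to 8, the seed of a mature strand, and in the mature strands also base 21.
form T: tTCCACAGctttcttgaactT
form G: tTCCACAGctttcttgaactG
arm GTT: gTTCAATAaagctgtgggaag
arm GCT: gCTCAAGAaagctgtgggaga
arm ATT: aTTCAAGAaggtcgtggaaaa

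The names used here are descriptive, since the tables carry no microRNA names. Form T and form G are identical at 20 of 21 positions and differ by T21G, with positions counted from 1 at the 5′ end. They share the seed TCCACAG, which no other listed sequence has at bases 2 to 8. Arm GTT and arm GCT each pair with either mature form through 17 Watson-Crick pairs, 1 GU pair and 1 mismatch, and differ from each other by T2C, T7G, A20G and G21A. Base 21 of the mature strand lies in the overhang, so pairing does not assign an arm to form T or to form G. Arm ATT pairs less well, through 15 Watson-Crick pairs, 2 GU pairs and 2 mismatches. It differs from each of the other arms at 7 of 21 positions. It is a member by the pairing rule only, and whether it comes from a miR396 precursor was not tested. The nearest sequences outside the rule had 6 mismatches over 18 nt, with 1214 and 128336 counts.

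Libraries came from the wild type A17 and from the cra2 mutant, in which the receptor kinase CRA2 is affected; this receptor binds CEP peptides, which roots short of nitrogen release. Plants grew in hydroponics with 0.5 mM KNO3, their roots were split at 3 weeks, and for the last 4 days before harvest at 4 weeks the local root compartment received 10 mM NH4NO3 (satiety) or 0.05 mM KNO3 (deficit), while the systemic compartment received no mineral nitrogen in any group. Shoots and roots gave 8 groups of 3 libraries, namely A17 and cra2, shoot and root, satiety and deficit. The series design describes the roots as distant split roots, but the labels of single libraries name only organ, genotype and treatment. Satiety and deficit thus name the supply of the local compartment, and not necessarily that of the roots sequenced. Nothing in the labels says whether replicates are separate plants, so p-values measure only the spread between these libraries, which may be technical. Small RNA does not measure the CRA2 transcript, so genotype labels were not checked by it, and organ labels were not checked against markers.

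The root libraries held 768323 to 1661422 counts and the shoot libraries 1494211 to 3919811. A single miR159 sequence took 67.1 to 84.9% of the counts over the 24 libraries. The miR396 family took 5.19 to 10.6% of the counts in roots and 4.30 to 9.24% in shoots. Form T held 52.4% of the family's counts (1655416), form G 36.5% (1151914), arm GTT 10.4% (327406), arm GCT 0.703% (22179) and arm ATT 0.00418% (132 counts in 22 of 24 libraries). In roots 4 members passed the filter on low counts, and in shoots all 5. Library 2 of the cra2 shoot deficit group stood apart, with the lowest total of the shoots and a TMM scaling factor of 1.70 within shoots. Over all 24 libraries its factor was 1.29, against 0.57 to 0.90 in the other shoots and 1.08 to 1.59 in roots. Its total and its miR159 share of 73.2% also lay within the range of roots, where that share was 67.1 to 77.2%. Its 0.116 counts of arm GCT per count of arm GTT lay within the range of the other shoots and above every root. Why this library stood apart was not tested. Many results that include this library are also given without it, but not all.

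Under local nitrogen deficit the mature strands of roots moved in opposite directions. Form G rose and form T fell in both genotypes, while the family sum did not pass the test. In A17 roots form G stood at 32327, 24316 and 22683 CPM under satiety and at 60866, 30451 and 47971 CPM under deficit, in the order of libraries 1 to 3. Here CPM are counts scaled to a common library total, set within the organ with TMM factors. Deficit library 2 lay just under the highest satiety library, so the groups overlapped by that library, and the others were higher. Means were 46429.6 ± 15266 against 26442 ± 5162 CPM (SD, n = 3 each). The log2 change was 0.81 with a standard error of 0.21 (quasi-likelihood test of edgeR, adjusted p = 0.0090 by Benjamini and Hochberg); values after ± on the log2 scale are standard errors throughout. Form T stood at 30526, 29951 and 32382 CPM under satiety and at 20607, 20222 and 24707 CPM under deficit, with no overlap. Its log2 change was -0.50 ± 0.15 (edgeR adjusted p = 0.0178). Arm GTT, the main opposite arm, fell from 9226 ± 1158 to 6177 ± 394 CPM (log2 -0.58 ± 0.18, edgeR adjusted p = 0.0191), also with no overlap. Arm GCT stood at 271 ± 56.2 and 198 ± 47.0 CPM without passing (log2 -0.45 ± 0.23, edgeR adjusted p = 0.155). In bulk tissue, fewer cells of a type and less RNA per cell cannot be told apart.

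Of the 4 members tested in A17 roots 3 were thus called, beside 31% of the 168 sequences tested there. The form G call held in 7 of 7 alternative analyses and in each of 6 fits with 1 library left out (adjusted p up to 0.0424). The form T call was lost with library-total scaling (edgeR adjusted p = 0.108) and with the 6 libraries alone (0.0985). Of the 6 fits that leave out a library it was kept only in that without deficit library 3 (edgeR adjusted p = 0.0255); the values were 0.129 and 0.0569 without deficit libraries 1 and 2, and 0.0584, 0.0887 and 0.133 without satiety libraries 1, 2 and 3. Its log2 change stayed between -0.54 and -0.35 in those fits. The arm GTT call was likewise lost with library totals (log2 -0.49, edgeR adjusted p = 0.0707) and with only the libraries compared (-0.50, 0.0588). Of the fits that leave out a library it was kept without deficit library 3 (edgeR adjusted p = 0.0444) or satiety library 2 (0.0388), and lost without deficit libraries 1 and 2 (0.083 and 0.0569) or satiety libraries 1 and 3 (0.0738 and 0.127). Without satiety library 3 the number of called sequences in the whole table also fell, from 52 to 16. The family sum was 73589 ± 10772 against 64766 ± 4159 CPM (log2 0.18 ± 0.17, edgeR adjusted p = 0.425).

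The cra2 roots gave the same directions. Form G stood at 32288, 28521 and 28951 CPM under satiety and at 57926, 44521 and 58609 CPM under deficit, so that every deficit library was above every satiety library. The log2 change was 0.84 ± 0.21 (edgeR adjusted p = 0.0064), called in 7 of 7 alternatives and 6 of 6 fits without a library. Form T stood at 35221, 37897 and 35836 CPM against 22085, 20118 and 24133 CPM under deficit, again without overlap. Its log2 change was -0.72 ± 0.15 (edgeR adjusted p = 0.0019), lost only with library-total scaling (adjusted p = 0.133). Arm GTT stood at 7828 ± 1429 under satiety and 5609 ± 912 CPM under deficit, with libraries that overlapped. Its log2 change of -0.48 ± 0.18 passed narrowly (edgeR adjusted p = 0.0493) and failed in 6 of 7 alternatives and 5 of 6 fits without a library, the exception being the fit without satiety library 1 (0.0371). Arm GCT did not pass, at 214 ± 13.2 and 222 ± 41.1 CPM (log2 -0.05 ± 0.24, edgeR adjusted p = 0.898). Again 3 of 4 members were called, beside 28.6% of 168 sequences, and the family sum was not (log2 0.24 ± 0.17, edgeR adjusted p = 0.327).

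The responses of the genotypes in roots were compared directly. The difference of responses, cra2 minus A17, was 0.03 ± 0.30 for form G, -0.21 ± 0.21 for form T, 0.10 ± 0.25 for arm GTT and 0.39 ± 0.33 for arm GCT on the log2 scale (edgeR adjusted p = 0.978, 0.801, 0.94 and 0.716). No member was called and 0% of the 168 sequences were, with 21 at an unadjusted p under 0.05 and none called by DESeq2. With these standard errors a small difference between genotypes was not detectable.

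**Figure D1:**
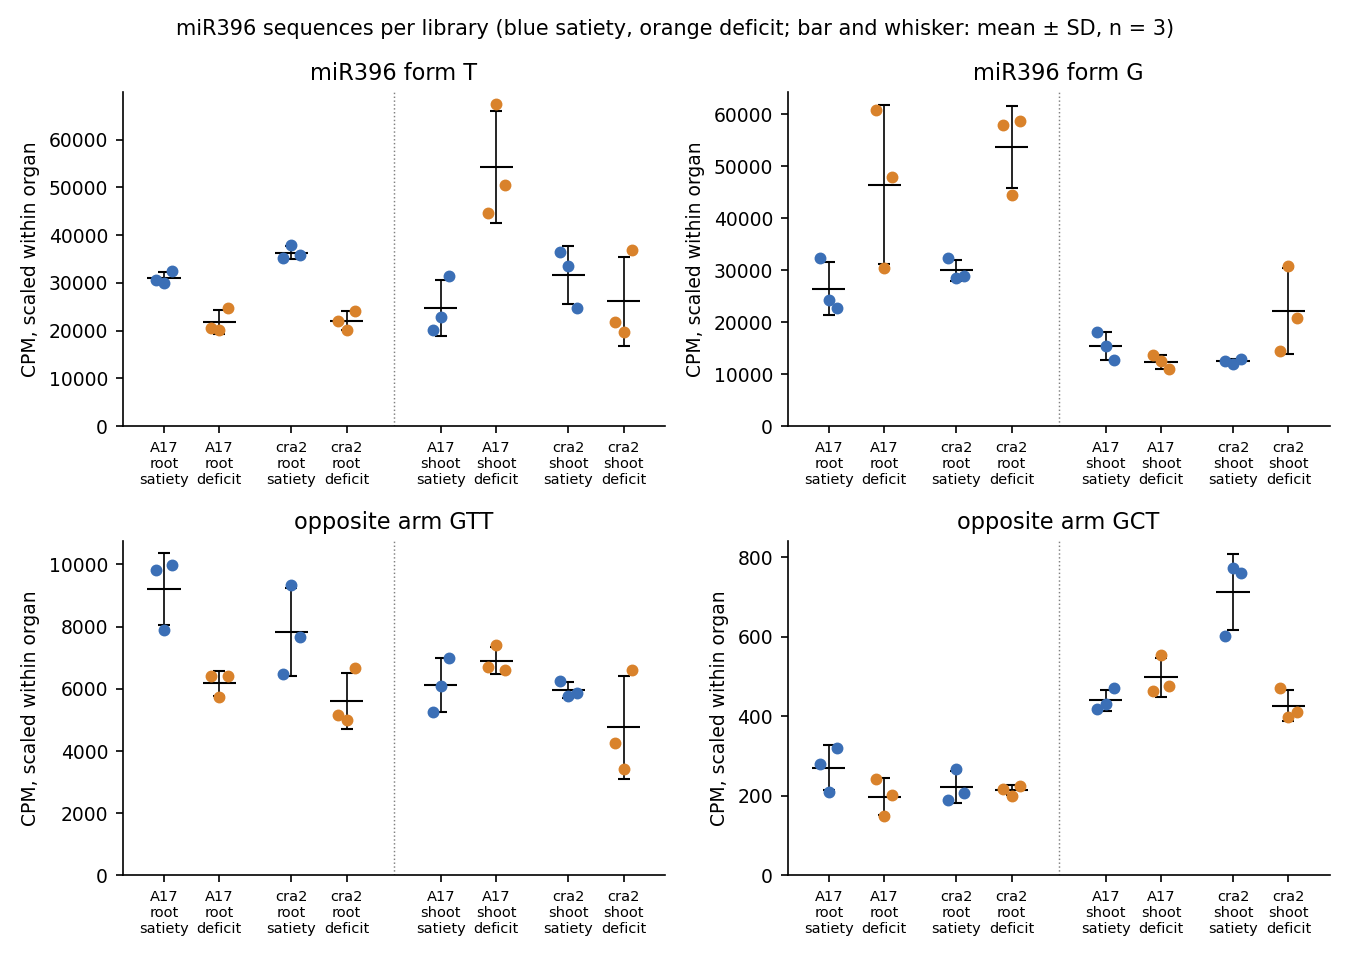
Level of the 4 abundant miR396 members in each library, in CPM scaled within the organ (y axis, linear, from 0), by group (x axis); blue points are satiety and orange points deficit libraries, bars and whiskers are mean ± SD of 3 libraries, and the dotted line separates roots from shoots, whose scales were set separately. Form T fell and form G rose under deficit in roots of both genotypes, while form T of A17 shoots stood at 44708 to 67422 CPM under deficit and 20187 to 31420 under satiety.

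In A17 shoots the pattern was the other way round in level, but no member passed the threshold. Form T stood at 20187, 22794 and 31420 CPM under satiety and at 44708, 67422 and 50577 CPM under deficit, so that the groups did not overlap. The log2 change was 1.13 ± 0.29, just short of the threshold (edgeR adjusted p = 0.0525). It passed in 6 of 8 alternatives, among them DESeq2 (adjusted p = 0.00498), the 6 libraries alone (0.000187) and the fit without cra2 shoot deficit library 2 (0.0351); these alternatives also called more of the table, 25.2%, 40% and 14.9% of the sequences tested. Over the 6 fits that leave out a compared library it passed only without deficit library 1 (0.0472; 0.0597 to 0.202 in the others). Form G stood at 18094, 15368 and 12743 CPM against 13583, 12578 and 10945 CPM under deficit, with overlap (log2 -0.32 ± 0.27, edgeR adjusted p = 0.41). Arm GTT, at 6121 ± 871 and 6903 ± 436 CPM, and arm GCT, at 440 ± 26.8 and 498 ± 49.2 CPM, did not pass (log2 0.17 ± 0.25 and 0.18 ± 0.20, edgeR adjusted p = 0.628 and 0.535). The family sum was 46249 ± 4938 under satiety and 78024 ± 5788 CPM under deficit, without passing (log2 0.75 ± 0.22, edgeR adjusted p = 0.0626). Of all 189 sequences tested 0% were called by edgeR, with 62 at an unadjusted p under 0.05, and DESeq2 called 38.

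In cra2 shoots the spread was wider. Form T stood at 36356, 33611 and 24819 CPM under satiety and at 21828, 19754 and 36836 CPM under deficit, with overlap (log2 -0.27 ± 0.29, edgeR adjusted p = 0.739). Form G stood at 12584, 11984 and 12828 CPM under satiety and at 14460, 30873 and 20875 CPM under deficit, every deficit library being higher (log2 0.82 ± 0.27, edgeR adjusted p = 0.537). The highest of these, 30873, belongs to the library that stood apart, without which the log2 change was 0.58 for form G and -0.039 for form T (edgeR adjusted p = 0.490 and 0.978). Arm GCT was lower in every deficit library, at 427 ± 39.1 against 712 ± 94.9 CPM (log2 -0.74 ± 0.20, edgeR adjusted p = 0.450; -0.59 and 0.490 without that library). Arm GTT stood at 4761 ± 1661 and 5966 ± 265 CPM (log2 -0.33 ± 0.25, edgeR adjusted p = 0.717). No member was called and 0% of 189 sequences were, with 12 at an unadjusted p under 0.05 and none called by DESeq2.

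**Figure D2:**
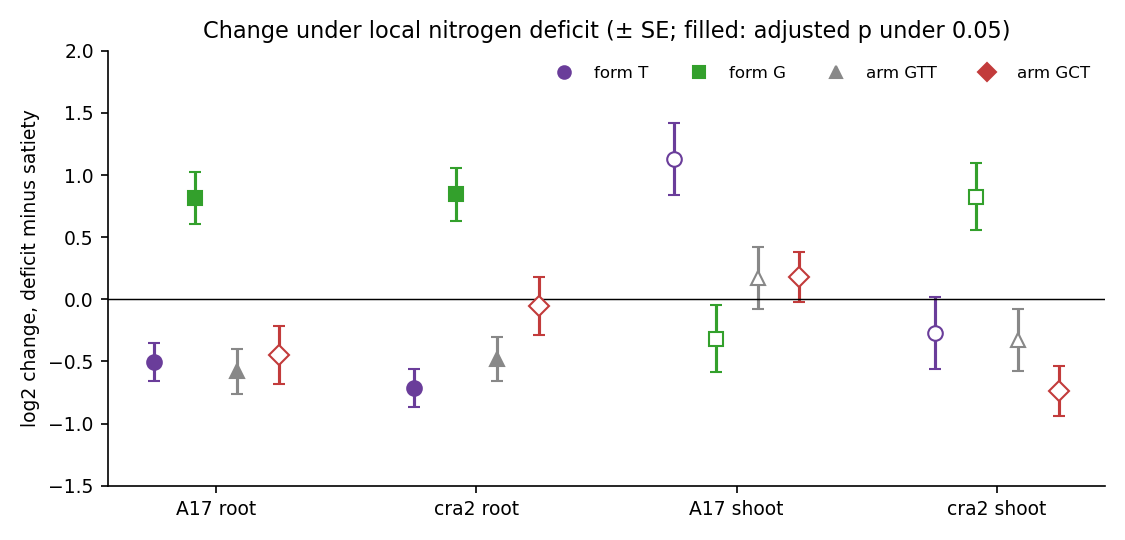
Log2 change of each abundant member under local deficit against satiety (y axis; symbol ± SE of the edgeR fit) in the 4 combinations of genotype and organ (x axis), with filled symbols for an adjusted p under 0.05. Forms G and T lie on opposite sides of 0 in each of the 4, and in A17 shoots form T is the upper one, at 1.13 against -0.32 for form G; with library totals form T in cra2 shoots turned to 0.12.

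The organs differed in how the mature forms responded in A17. The difference of responses, shoot minus root, was 1.49 ± 0.34 for form T (edgeR adjusted p = 0.00298), kept in 8 of 8 alternatives and 12 of 12 fits without a library. For form G it was -1.27 ± 0.36 (edgeR adjusted p = 0.0132), kept in 5 of 8 alternatives and lost at -0.82 with no filter, -0.84 without the miR159 sequence and -0.80 with only the libraries compared (0.121, 0.0822 and 0.0592). Without A17 root deficit libraries 1 or 3 or root satiety library 3 it was -0.85, -0.86 and -0.85 with adjusted p of 0.0998, 0.0947 and 0.119. Arm GTT (0.61 ± 0.31) and arm GCT (0.48 ± 0.31) did not pass (edgeR adjusted p = 0.139 and 0.258). Arm GTT passed, however, in 6 of 8 alternatives (0.86 to 1.09) and arm GCT in 4 of 8 (0.82 to 0.95), and both passed without A17 root deficit library 3 (0.99 and 0.86, edgeR adjusted p = 0.0388 and 0.0394). Of the 5 members 2 were called, beside 27% of the 200 sequences tested over both organs. In cra2 the same difference was 0.55 ± 0.34 for form T and 0.09 ± 0.36 for form G (edgeR adjusted p = 0.532 and 0.971), where 0.5% of 200 sequences were called and no member was.

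The ratio of the mature forms within a library does not depend on how libraries are scaled to each other, so it was followed on its own. In A17 roots form G made up 51.4, 44.8 and 41.2% of the mature miR396 counts under satiety and 74.7, 60.1 and 66.0% under deficit. In cra2 roots the shares were 47.8, 42.9 and 44.7% under satiety and 72.4, 68.9 and 70.8% under deficit. In roots of either genotype, then, form T was the more abundant mature strand in 5 of the 6 satiety libraries and form G in all 6 deficit libraries. In A17 shoots form G held 47.3, 40.3 and 28.9% under satiety and 23.3, 15.7 and 17.8% under deficit. In cra2 shoots it held 25.7, 26.3 and 34.1% under satiety and 39.8, 61.0 and 36.2% under deficit, the 61.0% belonging to library 2. In each of the 4 combinations the satiety and deficit libraries did not overlap, with the deficit libraries higher in 3 and lower in A17 shoots.

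**Figure D3:**
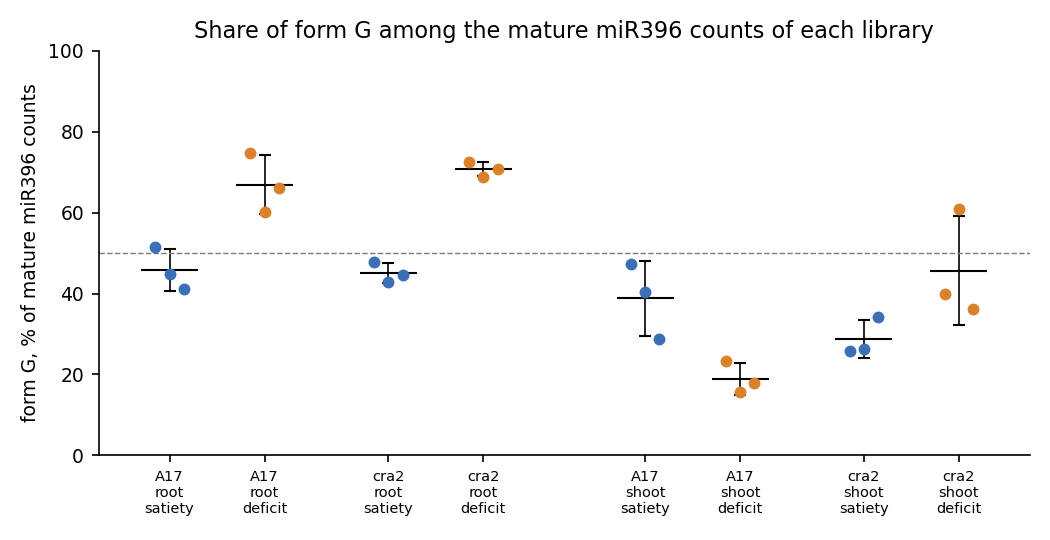
Share of form G among the counts of forms G and T in each library (y axis, percent; the dashed line marks equal counts) by group (x axis); blue is satiety, orange is deficit, bars and whiskers are mean ± SD of 3 libraries. Under deficit the share was 66.9 ± 7.35% in A17 roots and 70.7 ± 1.76% in cra2 roots, against 18.9 ± 3.92% in A17 shoots and 45.7 ± 13.4% in cra2 shoots. Without library 2 the mean of cra2 deficit shoots was 38.0%.

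As a log2 ratio of form G to form T, the change under deficit was 1.28 in A17 roots, 1.55 in cra2 roots, -1.44 in A17 shoots and 1.07 in cra2 shoots (0.62 without deficit library 2, still higher without overlap); with 3 against 3 libraries each has an exact two-sided permutation p of 0.1, the smallest that size allows. Pooled over the 4 strata, these opposed changes averaged 0.62, and the exact stratified permutation test over 160000 arrangements gave an adjusted p of 0.119 over the 15 ratio tests made. In roots alone the average was 1.42 (exact permutation adjusted p = 0.0167), and in shoots alone -0.19 (0.811). Between organs, the log2 ratio was 1.54 lower in shoots on average (exact permutation adjusted p = 0.000375), with shoots below roots without overlap in 3 of 4 strata and overlapping in A17 under satiety. Between genotypes the ratio did not pass (log2 0.35 higher in cra2, exact permutation adjusted p = 0.273). Its strata differed widely, with cra2 1.86 above A17 in deficit shoots without overlap (1.41 without cra2 library 2), 0.65 below in satiety shoots, and 0.24 above and 0.04 below in deficit and satiety roots, the last 3 with overlap.

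Pairs of sequences that differ at 1 base were used to describe how usual such a shift is. Among listed sequences 10 such pairs had at least 1000 counts for each sequence, and in 5 of them the log2 ratio moved by under 1 in all 4 combinations of genotype and organ. With all libraries in, the miR396 pair had the largest movement of the 10 in A17 roots, A17 shoots and cra2 shoots. In cra2 roots a miR171 pair (C9T; miR171 targets SCARECROW-LIKE factors) moved further, by 1.88 in size against 1.55, and a miR160 pair (A15T; miR160 targets AUXIN RESPONSE FACTOR transcripts) moved by 1.39 in A17 shoots against 1.44. In cra2 shoots the miR396 pair moved by 1.07 against 0.97 for another miR171 pair (C21T). Without cra2 shoot deficit library 2 the miR396 pair moved by 0.62, and the other pairs were not followed without it. Pairs share libraries and some share a sequence, so no test was made.

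Genotypes were compared next at equal organ and nitrogen supply. In roots no member was called at either supply, beside 26.2% of 168 sequences under satiety and 32.7% under deficit. There the log2 difference of cra2 minus A17 was 0.18 ± 0.21 under satiety and 0.21 ± 0.21 under deficit for form G (edgeR adjusted p = 0.559 and 0.47), and 0.23 ± 0.15 and 0.02 ± 0.15 for form T (0.298 and 0.942). Arm GTT differed by -0.24 ± 0.18 and -0.14 ± 0.18, and arm GCT by -0.28 ± 0.23 and 0.11 ± 0.23. In satiety shoots arm GCT was higher in every cra2 library, at 603, 773 and 761 CPM against 420, 431 and 471 CPM in A17. Its log2 difference of 0.69 ± 0.20 sat at the threshold without passing (edgeR adjusted p = 0.05001; 5 of 8 alternatives passed, and none of 6 fits without a library did). The other members of satiety shoots were not called either, beside 6.88% of 189 sequences.

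In deficit shoots form T was lower in cra2, at 21828, 19754 and 36836 CPM against 44708, 67422 and 50577 CPM in A17, without overlap. The log2 difference was -1.05 ± 0.29 (edgeR adjusted p = 0.0342). It kept its call in 4 of 7 alternatives, missing it at -0.58 with library totals, -1.07 without the miR159 sequence and -1.10 with only the libraries compared (edgeR adjusted p = 0.0519, 0.0507 and 0.155), and, among fits without a library, only without A17 library 1 (0.038) or cra2 library 3 (0.00206). The adjusted p was 0.172 and 0.118 without A17 libraries 2 and 3, and 0.0818 and 0.0603 without cra2 libraries 1 and 2, with log2 differences of -0.88, -1.01, -0.94 and -0.96. Form G was higher in every cra2 library (log2 0.84 ± 0.27) without passing (edgeR adjusted p = 0.0528), nor did it without the cra2 library that stood apart (log2 0.45, 0.233). It did pass with library totals (1.46, edgeR adjusted p = 0.0129), with DESeq2 (0.82, 0.0253) and without cra2 library 1 (1.02, 0.0198) or library 3 (0.81, 0.0287). Arm GTT (-0.54 ± 0.25) and arm GCT (-0.22 ± 0.20) did not pass, but arm GTT did without cra2 library 3 (-0.87, edgeR adjusted p = 0.00923). These values share the A17 deficit shoots with the nitrogen comparison. Of the 5 members 2 were called, form T and the rare arm ATT, beside 13.2% of 189 sequences.

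The shoot responses of the genotypes differed in level in opposite directions for the mature forms without passing: cra2 minus A17 was -1.40 ± 0.41 for form T, 1.14 ± 0.38 for form G and -0.92 ± 0.28 for arm GCT, each with an edgeR adjusted p of 0.0976, and -0.50 ± 0.35 for arm GTT (0.393). Here 0% of 189 sequences were called, with 51 at an unadjusted p under 0.05 and 24 called by DESeq2. DESeq2 did call form T (-1.38, adjusted p = 0.0261), form G (1.14, 0.0318) and arm GCT (-0.91, 0.00979). With library totals form G (1.81, edgeR adjusted p = 0.0391) and arm ATT (3.61, 0.0494) passed. Without cra2 deficit library 3 form T (-1.69, edgeR adjusted p = 0.00495), form G (1.18, 0.0293), arm GCT (-0.86, 0.047) and arm GTT (-0.78, 0.0479) passed, and without cra2 deficit library 1 form G did (1.32, 0.0476). Without cra2 deficit library 2 form T, form G and arm GCT were at -1.28, 0.77 and -0.89 (edgeR adjusted p = 0.133, 0.158 and 0.146).

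Arm ATT was near the limit of detection. In A17 shoots it had 8, 9 and 13 counts under satiety and 1, 1 and 2 under deficit, and in cra2 shoots 3, 5 and 11 counts under satiety and 7, 2 and 16 under deficit. Roots held 0 to 14 counts a library. Its log2 change under deficit in A17 was -2.71 ± 0.86 (edgeR adjusted p = 0.0576), and its difference between genotypes under deficit 2.80 ± 0.87 (0.0482). The latter was called in 3 of 6 alternatives and only without cra2 library 1 (0.0383) or library 2 (0.0346); without cra2 library 3, which held 16 of those counts, it was 1.71 (0.168), and without A17 libraries 1, 2 and 3 it was 2.59, 2.68 and 3.21 (0.13, 0.172 and 0.121). A count of 3 corresponded to 0.765 to 2.01 CPM in shoots and 1.81 to 3.90 CPM in roots, so levels of this arm lie around that of a few reads.

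Shoots and roots were compared with 1 scaling over all 24 libraries, on which the CPM of this paragraph are given. Arm GCT was higher in shoots in each of 4 comparisons. It stood at 608 ± 74.8 in shoots and 210 ± 41.7 CPM in roots of A17 under satiety, 639 ± 85.1 and 157 ± 41.5 under deficit, 855 ± 86.1 and 164 ± 20.2 in cra2 under satiety, and 578 ± 74.7 and 165 ± 6.3 under deficit. The log2 differences were 1.54 ± 0.22, 2.02 ± 0.23, 2.38 ± 0.23 and 1.81 ± 0.22 (edgeR adjusted p = 3.08e-06, 8.32e-08, 6.42e-09 and 3.66e-07), and each passed in all alternatives and all fits without a library. Form T was higher in A17 shoots under deficit, at 69684 ± 17290.4 against 17354 ± 3117 CPM (log2 2.01 ± 0.25, edgeR adjusted p = 4.04e-07), and in cra2 shoots under deficit, at 35215 ± 12025 against 17011 ± 962 CPM (1.05 ± 0.24, 0.000792). The latter missed the threshold with library totals (0.35, edgeR adjusted p = 0.15) and with only the libraries compared (1.05, 0.0517). Under satiety its differences of 0.52 ± 0.24 and 0.50 ± 0.24 did not pass. The cra2 one passed with no filter (0.60, edgeR adjusted p = 0.0334) and with only the libraries compared (0.50, 0.0103), and each passed without 1 shoot satiety library, A17 library 2 (0.64, 0.0417) or cra2 library 3 (0.65, 0.0367). Form G was lower in A17 shoots under deficit, at 15884 ± 2313 against 36955 ± 12898 CPM (log2 -1.22 ± 0.26, edgeR adjusted p = 0.00027). It differed by 0.05 ± 0.25 in A17 under satiety, and by -0.57 ± 0.25 and -0.48 ± 0.25 in cra2 under satiety and deficit, without passing. The satiety difference passed with library totals (-1.22, edgeR adjusted p = 0.00283), with only the libraries compared (-0.56, 0.00686) and with cra2 shoot deficit library 2 out of the fit (-0.60, 0.0319). The deficit difference passed with library totals (-1.02, edgeR adjusted p = 0.0121) and without shoot library 2 (-0.73, 0.0211).

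Arm GTT was higher in shoots under deficit in A17 (log2 0.85 ± 0.22, edgeR adjusted p = 0.00172) and in cra2 (0.58 ± 0.22, 0.031), and did not pass under satiety (0.24 ± 0.22 and 0.32 ± 0.22). The cra2 call was lost without root deficit libraries 1 or 2 (log2 0.57 and 0.56, edgeR adjusted p = 0.0886 and 0.104) or shoot deficit library 3 (0.28, 0.265). Of 7 alternatives 3 kept the cra2 call. It was lost with RLE scaling (0.54, edgeR adjusted p = 0.0552), no filter (0.41, 0.203), only the libraries compared (0.58, 0.247) and library totals. With library totals in place of TMM factors the sign of arm GTT turned in all 4 comparisons, that of form T in both satiety comparisons, that of form G in A17 under satiety and that of the family sum in all 4, while those of arm GCT in all 4 and of form T and form G under deficit did not. Called values were among those that turned: under deficit arm GTT went to -0.051 in A17 and -0.13 in cra2, and the family sum of A17 to -0.24. In A17 under satiety, arm GTT (-0.61, edgeR adjusted p = 0.00857), form G (-0.77, 0.0458) and the family sum (-0.53, 0.0429) then passed as lower in shoots. The scaling itself shifted the median log2 difference of all tested sequences, for example in A17 under satiety from 0.23 with TMM to -0.61 with library totals. Of the 5 members, called members numbered 1 in A17 under satiety, 4 under deficit, 1 in cra2 under satiety and 3 under deficit, beside 49.5%, 56%, 46% and 48.5% of 200 sequences. The family sum passed in A17 under deficit alone (log2 0.84 ± 0.20, edgeR adjusted p = 0.00131).

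Counts of the opposite arms were also set against those of the mature forms within each library, with no arm assigned to a form. There were 16.6 ± 1.94 counts of opposite arms per 100 mature counts in A17 roots under satiety and 9.62 ± 1.77 under deficit. In cra2 roots the values were 12.2 ± 2.28 and 7.71 ± 0.859, in A17 shoots 16.3 ± 1.26 and 11.2 ± 1.19, and in cra2 shoots 15.3 ± 1.99 and 10.9 ± 2.94. Without library 2 the mean of cra2 deficit shoots was 12.6. The deficit libraries were below the satiety libraries without overlap in each of the 4. Against form G, arm GTT was lower under deficit by 0.83 and arm GCT by 0.78 on the log2 scale (exact stratified permutation test, adjusted p = 0.00573 each). Both share the counts of form G, so they are not independent. These pooled values rest on the strata other than A17 shoots, where arm GTT and arm GCT stood 0.49 and 0.48 higher under deficit with overlapping libraries. In shoots alone neither passed (-0.32 and -0.50, exact permutation adjusted p = 0.686 and 0.450). Against form T, neither arm changed past the threshold with nitrogen (-0.21 and -0.16, exact permutation adjusted p = 0.142 and 0.406). The strata differed: in A17 shoots arm GTT and arm GCT were lower against form T under deficit by 0.95 and 0.96 without overlap, and in cra2 roots arm GCT was 0.68 higher without overlap. The other 5 changes, from -0.42 to 0.24, had libraries that overlapped.

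Between organs all 4 ratios of an arm to a mature form passed. These are not independent results. The ratio of an arm to form G follows from its ratio to form T and the ratio of form G to form T. On the log2 scale arm GCT was 2.50 higher in shoots against form G (exact permutation adjusted p = 0.0001875, from the smallest p the test can give) and 0.96 higher against form T (0.001125). Arm GTT was 1.04 higher against form G and 0.50 lower against form T (0.001125 each). By stratum, arm GCT against form G was higher in shoots without overlap in all 4. Against form T it overlapped in A17 under deficit, at 0.055, and was higher without overlap in the other 3 (0.80 to 1.90). Arm GTT against form G was higher without overlap in A17 under deficit (2.02) and cra2 under satiety (0.88), and overlapped in A17 under satiety (0.18) and cra2 under deficit (1.06). Without cra2 shoot deficit library 2 the last was 1.55, higher in shoots without overlap. Against form T arm GTT was lower without overlap in both deficit strata (-1.14 in A17 and -0.47 in cra2) and overlapped under satiety (-0.25 and -0.16). The arms also stood differently to each other: there were 0.0291 ± 0.00282 counts of arm GCT per count of arm GTT in A17 roots under satiety and 0.0319 ± 0.00593 under deficit, against 0.0725 ± 0.00647 and 0.0720 ± 0.00285 in A17 shoots. In cra2 the ratios were 0.0284 ± 0.0011 and 0.0386 ± 0.00433 in roots and 0.1200 ± 0.0207 and 0.0965 ± 0.0300 in shoots. Every shoot library was above every root library, a description made without a test. Genotype moved 1 ratio, arm GTT to form G, which was 0.49 lower in cra2 (exact permutation adjusted p = 0.0348); it failed in roots alone, in shoots alone and in 10 of 24 tests with a library left out (-0.36 and 0.0545 without cra2 shoot deficit library 2).

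**Figure D4:**
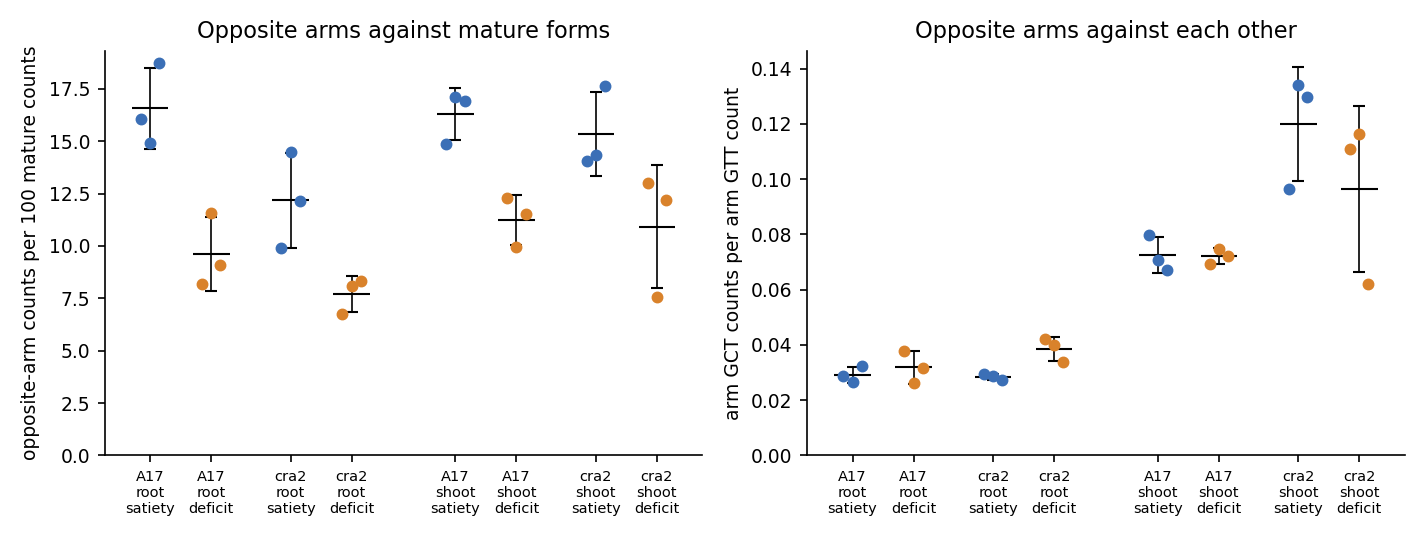
Left, counts of the opposite arms per 100 counts of the mature forms in each library (y axis) by group (x axis); right, counts of arm GCT per count of arm GTT. Blue is satiety, orange is deficit, and bars and whiskers are mean ± SD of 3 libraries; on the left deficit lies below satiety in each combination, and on the right the shoots lie between 0.0620 and 0.134 against 0.0260 to 0.0422 in roots.

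Sequences with a pattern over the 8 group means most like that of form T were picked by the smallest root mean square difference of centred log2(CPM + 1) values among 195 sequences outside the family. The 5 nearest had differences of 0.257, 0.290, 0.292, 0.317 and 0.318 in the order shown, beside a median of 0.947.
nearest 1: TTGTCTTACCCATTCCTCCCA
nearest 2: AAATGCTTGAGTCCTGTTGTT
nearest 3: CTCGGCATTCATGTTTTTCCTT
nearest 4: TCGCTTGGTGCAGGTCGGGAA
nearest 5: TTTGGATTGAAGGGAGCTCTA

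The last of them is the dominant miR159 sequence, which targets GAMYB factors. By the same measure arm GTT lay at 0.371 and arm GCT at 0.611 from form T, while form G lay at 1.05, beyond the median, although it differs by 1 base.

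Other microRNAs of growth and organ development were counted for comparison, from a list of 22 sequences of miR159, miR160, miR164, miR166, miR167, miR171, miR319 and miR390. In A17 roots 6 of the 17 tested rose and 3 fell under deficit, beside 31% of all 168 sequences called, with a median log2 change of 0.38 beside -0.0017 over all sequences. In cra2 roots 4 rose and 2 fell, beside 28.6% of all (median 0.12 beside -0.013). The main miR319 sequence, which targets TCP factors that restrain leaf growth, rose in both genotypes (log2 0.75 ± 0.19 and 0.90 ± 0.19, edgeR adjusted p = 0.00865 and 0.00194), as form G did. The main miR166 sequence, which targets class III HD-ZIP factors of organ polarity, fell in both (-0.60 ± 0.16 and -0.81 ± 0.16, 0.0119 and 0.00158), as form T did. Of the other families' main sequences, miR164 (0.58 ± 0.19, edgeR adjusted p = 0.0199) rose and miR390 (-0.61 ± 0.20, 0.0231) fell in A17 roots, and miR171 rose in cra2 roots (1.80 ± 0.43, 0.00432). There miR164 was at 0.43, miR390 at -0.017 and miR160, miR167 and miR159 at 0.097, -0.016 and -0.36 without passing, and in A17 roots miR160, miR167, miR171 and miR159 were at 0.65, 0.12, 0.38 and -0.080, also without passing. In shoots none of 18 passed in either genotype, beside 0% of all 189 sequences called in each (medians -0.55 and 0.048, beside -0.19 and -0.046). In the difference of A17 responses, shoot minus root, 2 of 20 were higher and 7 lower, beside 27% of all 200 called, with a list median of -1.20 beside -0.31. Of the main sequences miR166 (1.17 ± 0.32, edgeR adjusted p = 0.00998) and miR390 (0.83 ± 0.27, 0.0279) were higher, and miR319 (-1.51 ± 0.32, 0.00193), miR160 (-2.30 ± 0.60, 0.00885) and miR164 (-1.16 ± 0.40, 0.0325) lower, while miR171 did not pass (-1.26, 0.0587). The difference of responses between genotypes gave none, beside 0% of 168 sequences in roots and 0% of 189 in shoots. Between genotypes 2 of 17 were higher and 5 lower in cra2 in satiety roots, 2 and 6 in deficit roots, none in satiety shoots, and 2 of 18 higher in deficit shoots, beside 26.2%, 32.7%, 6.88% and 13.2% of all sequences. Between organs 9 of 20 were higher and 8 lower in shoots of A17 under satiety and likewise in cra2 under satiety, and under deficit 5 and 10 in A17 and 8 and 5 in cra2. The shares called of all 200 sequences were 49.5% and 46% under satiety and 56% and 48.5% under deficit, in A17 and cra2.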

How the data were processed

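Small RNA was sequenced from 24 samples in 8 groups of 3, grouped by the genotype, tissue and treatment in the labels. Per the labels' protocols, total RNA came from a miRNeasy extraction, and NEXTFLEX Small RNA-seq libraries were size-selected before sequencing. The authors deposited raw counts of reads for each listed sequence, and these were used unchanged. Reads had been processed with cutadapt, per the submitters' processing notes. The aligner, the counter, how reads of other lengths were credited and where the sequence list came from are details not given in the sources used here. How strongly library preparation favours particular ends was not measured, so levels of different sequences in a library are counts, not molecules.

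Listed sequences that begin with the conserved first 8 bases of miR396 served as the reference to which all listed sequences were aligned by the rule given above, and opposite arms were found by pairing (at least 17 paired positions, at most 4 GU pairs). Members were tested with edgeR 4.0.16 (quasi-likelihood, robust, TMM factors, filterByExpr by group) under R 4.3.3. Benjamini-Hochberg adjustment ran over all sequences tested, and a call is an adjusted p under 0.05. The 12 libraries of an organ were fitted together with 4 group means, and all 24 for comparisons of organs. The family sum replaced the members in the same table, with scaling factors of its own, where 0 to 55.6% of rows were called. Ratios used log2 with a pseudocount of 0.5 and a two-sided exact permutation test within 4 strata (160000 arrangements, smallest p 1.25e-05), adjusted over 15 tests. Tests of roots or shoots alone had fewer strata and arrangements, and were adjusted over their own, fewer tests of nitrogen and genotype. Both steps were run on a single simulated data set each, of roots alone for edgeR, so how often they err in these data was not measured. Precision is limited by 3 libraries per group; counts of replicates differed beyond counting error (chi-square per degree of freedom 32.5 to 598.3 over 24 pairs), and floors of 3 counts cover counting error only.

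Alternatives were RLE and library-total scaling, no filter, the miR159 sequence left out, a replicate block, DESeq2 1.42.0, only the libraries compared, each library left out, a pseudocount of 5, and roots or shoots alone. Leaving cra2 shoot deficit library 2 out of the fit or of the strata, and testing strata alone, were added after seeing the data. Same-numbered libraries of the same organ had correlated deviations over 0.1 in 13 of 36 pairs (-0.38 to 0.34). All 3 pairs did so in 1 of 12 group pairs, A17 roots under deficit and satiety (0.21, 0.13 and 0.34). By the rule used the numbers would pair libraries there, but the labels do not say so and these values do not establish it. Shoot libraries were not compared with root libraries in this way, so pairing between organs was not checked. The main tests and the ratio tests did not pair libraries. The replicate block gave each number the same effect in all groups of a fit, so it is not a paired test of A17 roots. Every member with counts is named, with the 5 sequences most like form T and the most abundant mature sequence of each family in the growth list. The pairs that differ at 1 base were added as a description. The members and lists were chosen with earlier results of these data known.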

Additional observations from a re-analysis of the deposited data

Results flagged for a closer look

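The response of the mature forms to local nitrogen deficit differed between organs of A17, by the test of the difference itself: shoot minus root was 1.49 for form T (edgeR adjusted p = 0.00298) and -1.27 for form G (0.0132) on the log2 scale. The log2 ratio of form G to form T moved up under deficit in A17 roots and down in A17 shoots without overlap, a difference of -2.72 between organs that was not tested for the ratio itself. In shoots the same ratio moved down in A17 and up in cra2, a difference of 2.51 (2.06 without cra2 shoot deficit library 2) that was likewise not tested. Without overlap in either supply, the log2 ratio of arm GCT to form G was higher in cra2 than in A17 shoots under satiety and lower under deficit, a difference of 1.97 between supplies (1.65 without that library) that was not tested. The miR159 share was 73.2 to 81.7% in cra2 shoots under deficit and 82.9 to 84.4% under satiety. Without that sequence the A17 difference of responses was 1.91 for form T and -0.84 for form G (edgeR adjusted p = 0.000496 and 0.0822), and it does not enter the ratios.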

How the results depend on the processing

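Values here are log2 changes. With library totals in place of TMM factors many differences turned, called ones between organs under deficit among them: deficit against satiety to 0.29 for arm GCT in cra2 roots, and to 0.054 and 0.12 for arm GTT and form T in cra2 shoots; cra2 against A17 in deficit shoots to 0.31 for arm GCT and 0.065 for the family sum; shoot against root to -0.61, -0.77, -0.34 and -0.53 for arm GTT, form G, form T and the family sum in A17 under satiety, to -0.051 and -0.24 for arm GTT and the family sum in A17 under deficit, to -0.32, -0.16 and -0.50 for arm GTT, form T and the family sum in cra2 under satiety, and to -0.13 and -0.44 for arm GTT and the family sum in cra2 under deficit; and the difference of root responses between genotypes to 0.015 for form T. Arm GCT in cra2 roots under deficit also turned to 0.029 with no filter, 0.080 without the miR159 sequence, 0.027 with DESeq2 and 0.0023 with only the libraries compared. Form G between organs of A17 under satiety turned to -0.062 (RLE), -0.12 (no filter), -0.083 (without miR159), -0.067 (DESeq2), -0.16 (only the libraries compared) and -0.080 (cra2 shoot deficit library 2 out of the fit).

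Differences of responses also turned. Shoot minus root in cra2 went to -0.067 (RLE), -0.11 (no filter) and -0.023 (DESeq2) for form G, to -0.012 (no filter) for arm GTT, and to -0.071 (RLE), -0.085 (no filter), -0.024 (without miR159) and -0.043 (DESeq2) for the family sum. The family sum of cra2 minus A17 in roots went to -0.00028 (no filter) and -0.084 (without miR159). The family sum passed in A17 shoots at 0.92 (no filter), 0.78 (DESeq2), 0.67 (only the libraries compared) and 0.75 (cra2 shoot deficit library 2 out of the fit), and in the A17 response of shoot minus root at 0.72 (DESeq2) and 0.87 (only the libraries compared). The cause was not tested.

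Ratios in roots alone gave 1.42 for form G to form T with nitrogen and -0.32 for arm GTT to form T with genotype, which passed, 0.089 and 0.37 for arm GTT and arm GCT to form T with nitrogen and -0.19 for arm GCT to form T with genotype, which turned, and -0.42 for arm GTT to form G with genotype, which no longer passed. Shoots alone gave -0.19 for form G to form T with nitrogen and 0.057 for arm GTT to form T with genotype, which turned, and -0.50, -0.32 and -0.55 for arm GCT and arm GTT to form G with nitrogen and arm GTT to form G with genotype, which no longer passed.

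With a library left out, changed calls of members are given beside those results. For the family sum, ranges that crossed 0 or a threshold were 0.052 to 0.50 in A17 roots and -0.049 to 0.28 in cra2 shoots under deficit, -0.050 to 0.34, -0.0013 to 0.18 and -0.68 to -0.31 between genotypes in deficit roots, satiety shoots and deficit shoots, and -0.34 to 0.18, 0.51 to 0.92 and -0.15 to 0.16 for the responses of cra2 minus A17 in roots and of shoot minus root in A17 and cra2. For members, ranges that crossed 0 were -0.046 to 0.17 (arm GCT, cra2 roots under deficit), -0.021 to 0.18 (form T, genotypes in deficit roots), -0.22 to 0.14 (form G, organs of A17 under satiety), -0.13 to 0.28 and -0.12 to 0.24 (form G and arm GTT, root responses between genotypes), and -0.13 to 0.30 and -0.034 to 0.55 (form G and arm GTT, cra2 responses between organs). The ratio of arm GTT to form G between genotypes ranged from -0.55 to -0.36.

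With a replicate block, form T in A17 roots fell by 0.51 under deficit (edgeR adjusted p = 0.0141), and 83 of 83 results kept their direction and their side of the threshold. Over the libraries 3 counts correspond to 0.765 to 3.90 CPM, near the level of arm ATT and far below that of the other members.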
